A study of Bos taurus with 28 samples.

Results

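The comparison described here is that of heifers inseminated with semen from high fertility (HF) bulls against heifers that were not inseminated (CTRL). Heifers were taken by their labelled treatment, which gave 10 HF and 8 CTRL heifers, 18 of the 28 heifers of the series. All were female and were given a progesterone device for 8 days, and HF heifers were inseminated 72 h after its removal with frozen-thawed semen of 5 HF bulls, 2 heifers per bull. HF and CTRL heifers alike also received gonadotrophin-releasing hormone, when the device was inserted and at the time of insemination. Prostaglandin F2 alpha was given to all of them before the device was removed. Uterine tissue was taken after slaughter, 12 h after insemination in HF heifers, as an 8-mm punch of the intercaruncular endometrium, the part of the uterine lining between the attachment sites of the placenta. The endometrium was cut away from the myometrium, the muscle wall, with blades. CTRL heifers received no semen, so sperm, seminal plasma and the act of insemination cannot be told apart as the source of a difference. The labels give a Holstein-Freisan background for all heifers, whereas the animal records of the study list crosses, with 4 Limousin, 4 Charolais and 2 Belgian blue crosses in HF and 4 Limousin crosses and 1 each of Charolais, Aberdeen angus, Simmental and Saler crosses in CTRL. The work ran in 2 study replicates, and HF1 to HF5 with CTRL1 to CTRL4 made up study replicate 1. Both heifers of a bull carry numbers that differ by 5 (HF1 and HF6 for bull 6, up to HF5 and HF10 for bull 10).

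Semen deposited in the uterus meets a mucosa of luminal and glandular epithelium, fibroblast-rich stroma and resident immune cells. In cattle the uterus is known to answer insemination with a local inflammatory reaction in which prostaglandins, cytokines and recruited neutrophils take part, and which clears excess sperm. Prostaglandins are made from arachidonic acid by cyclooxygenases followed by a synthase specific to each prostaglandin, while lipoxygenases turn the same acid into hydroxy fatty acids and leukotrienes.

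The measurement was RNA-seq of 1 biopsy per heifer, given as the number of reads per Ensembl gene. Total counts were 14872812 to 24024538 per HF heifer and 15458403 to 22834975 per CTRL heifer. The files give IDs without symbols, and 1522 of 24596 IDs could be named, from a part of the study's table for another comparison with the same CTRL heifers that was sorted by p-value. Genes with a symbol therefore lean towards small p-values against CTRL, and counts of list members describe the named members alone. The gene lists were also written with earlier results of these data known, so such counts are no test of a list. Of the defining markers with an ID, the epithelial keratin KRT8 (48.9 to 187 CPM) and the stromal VIM (1358 to 3057 CPM) were present in all 18 heifers, as was ACTA2 of smooth muscle at 297 to 5041 CPM in HF and 465 to 7100 CPM in CTRL heifers. CPM here is the count scaled to a normalized library size (counts per 1e6 reads). Smooth muscle RNA differed between heifers. The mean log2 CPM of 11 smooth muscle genes was 4.10 to 6.47 in HF (median 5.15) and 4.76 to 7.67 in CTRL heifers (median 6.24), and CTRL1, CTRL4, CTRL6 and CTRL7 lay above every HF heifer. Fewer cells of a type and less RNA per cell cannot be told apart in such tissue. How much muscle wall stayed on each biopsy when the endometrium was cut away was not tested.

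Between HF and CTRL heifers, edgeR's quasi-likelihood test called 0 of 14885 genes (0.0%) at the adjusted threshold of 0.05, as did limma, and the lowest adjusted p in edgeR was 0.0650. An unadjusted p under 0.05 was found for 2386 genes in edgeR and for 1605 in limma, and of the former 1155 had higher (7.76%) and 1231 lower (8.27%) expression in HF heifers. DESeq2, the tool of the study, called 328 of 15459 genes (2.12%) at an adjusted p under 0.05, of which 162 were higher (1.05%) and 166 lower (1.07%). Every call below is a DESeq2 call, and no call is shared by edgeR at its adjusted threshold. Where no tool is named, a log2FC and its standard error are those of edgeR. The fold and the adjusted p of a call are then those of DESeq2, so such a p does not belong to the log2FC beside it. In a single simulated data set DESeq2 made a larger share of false calls than its threshold allows, which edgeR did not in this comparison. Among genes with a symbol DESeq2 called 120 of 1516 (7.92%), 68 higher (4.49%) and 52 lower (3.43%), and 571 of 1498 (38.1%) had an unadjusted edgeR p under 0.05, 290 higher (19.4%) and 281 lower (18.8%). The median log2 fold change (log2FC) was −0.02 over all genes tested and −0.01 over those with a symbol, and 46.4% of all genes tested and 49.1% of those with a symbol had a log2FC above 0.

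Among the calls the highest value was often that of the same few heifers. HF9 had the highest value of all 18 heifers in 84 of the 162 genes called higher (51.9%), against 1205 of the 6906 genes tested with a log2FC above 0 (17.4%). Among the 166 genes called lower, CTRL1 was highest in 57 (34.3%), CTRL5 in 37 (22.3%) and CTRL4 in 36 (21.7%), against 18.7%, 19.7% and 12.1% of the 7979 genes tested with a log2FC below 0. For CTRL5 the share among calls was thus near that over all such genes. Without HF9 DESeq2 called 110 genes, without CTRL1 97, without CTRL4 91 and without CTRL5 129, whereas without CTRL2 it called 869, without CTRL6 554 and without CTRL7 637. The number also fell to 134 without HF10, 200 without HF2 and 204 without CTRL8. With breed cross as a covariate 98 genes were called, with the mean of the smooth muscle genes as a covariate 112, and with the counts of both heifers of a bull summed 76. The breed covariate had Limousin, Charolais and all other crosses pooled as its levels. The pooled level held Belgian blue crosses in HF and Aberdeen angus, Simmental and Saler crosses in CTRL, so these crosses were not adjusted for separately. Without CTRL2 edgeR called 91 genes and without CTRL6 it called 3.

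**Figure D1:**
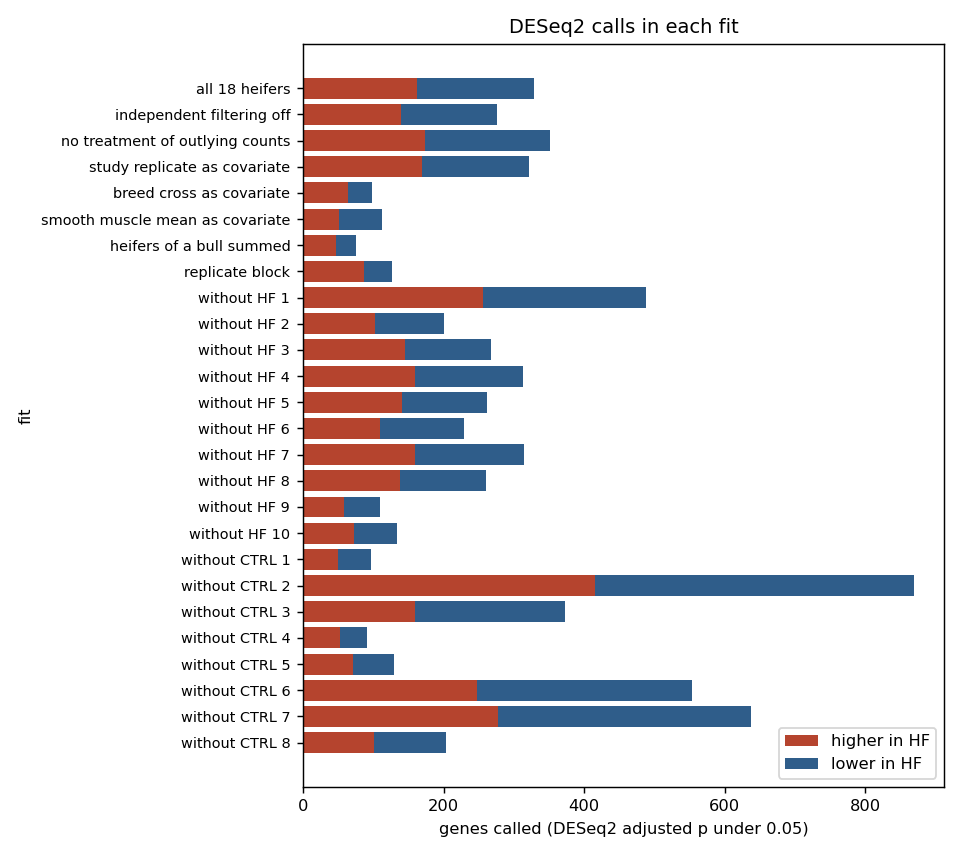
Number of genes called by DESeq2 at an adjusted p under 0.05 (x axis) in the fit of all 18 heifers and in each other fit (y axis), with genes higher in HF heifers in red and lower in blue. The bars run from 76 genes with the heifers of a bull summed to 869 without CTRL2.

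To see which genes did not rest on a single heifer or covariate, DESeq2 calls were followed through 24 fits: the 18 that each left out 1 heifer, 4 with study replicate, breed cross or the smooth muscle mean as a covariate or with bulls summed, and 2 with DESeq2's filtering or its treatment of outlying counts switched off. This selection was made after the data had been seen. Called in the same direction in all 24 were 36 of the 328 genes (10.98%), 20 higher and 16 lower, and 24 of these 36 were also called with the replicate number as a block. In edgeR, which tested 34 of the 36, their adjusted p was 0.0650 to 0.152. Of the 36, 19 have a symbol. Higher in HF heifers were the prostaglandin synthases PTGDS and PTGES, the amino acid transporter SLC7A3, the lipid handling genes FABP7, APOA1 and SLC27A3, the chemokine CCL25, the folate hydrolase FOLH1, the GABA receptor subunit GABRA4, the glycosyltransferase domain gene GLT8D2 and PDZK1IP1, a small membrane protein. Lower were the lipoxygenase ALOX12, the phosphatase DUSP5, the endoplasmic reticulum cochaperone DNAJC3, the vesicle genes GOLPH3 and CLINT1, the actin monomer binding TWF1, and RWDD4 and ALS2CR11. The fold change of the genes tested in edgeR kept 0.797 to 1.17 of its size with the muscle covariate and 0.865 to 1.12 with breed. Genes selected for being called with both covariates lean towards this by construction. Of all 328 calls, 88 were also called with the muscle covariate and 92 with breed.

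**Figure D2:**
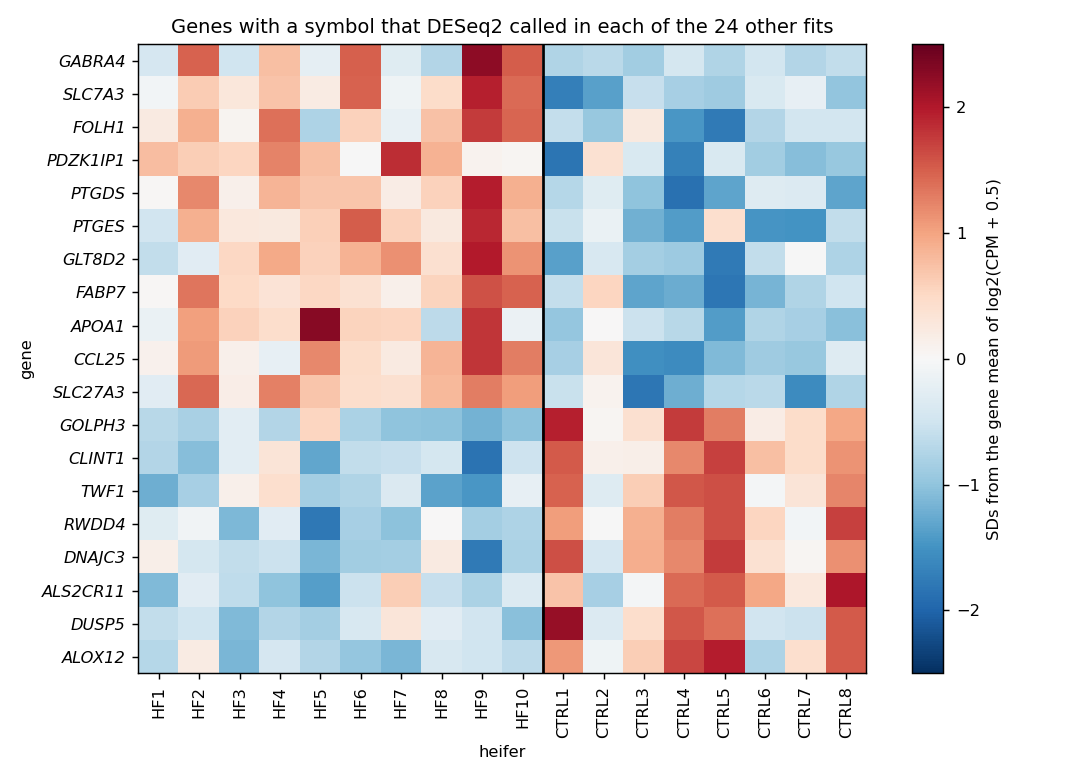
Level of the 19 genes with a symbol that DESeq2 called in each of the 24 other fits (rows) in each heifer (columns, HF left and CTRL right of the line), as SDs from the gene's mean of log2(CPM + 0.5). The upper 11 genes are redder in HF and the lower 8 in CTRL heifers, with HF9 the highest of all heifers in 8 of the upper 11.

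In the prostaglandin and lipoxygenase pathways, the prostaglandin D and E synthases and LTA4H were called higher and a lipoxygenase was called lower in HF heifers, while the prostacyclin synthase was not called. PTGDS (ENSBTAG00000015074), which makes prostaglandin D, ranged from 222 to 557 CPM with a median of 302 in HF heifers and from 89.1 to 188 CPM with a median of 145 in CTRL heifers. No HF heifer fell into the CTRL range, which held for 6 of the 14885 genes tested (0.0403%). The means were 318 ± 98.1 (SD, n = 10) and 146 ± 38.1 CPM (SD, n = 8), a log2FC of 1.13 ± 0.18 (standard error), with an adjusted p of 2.70e-05 in DESeq2, 0.0650 in edgeR and 0.0667 in limma. Without HF9, the highest heifer, the edgeR log2FC was 1.0002. PTGES (ENSBTAG00000019453), the microsomal prostaglandin E synthase, was at 6.81 to 23.1 CPM (median 11.9) in HF and 3.90 to 10.9 CPM (median 5.49) in CTRL heifers. Here the groups overlapped, with 6 HF heifers above every CTRL heifer and all 10 above the CTRL median (log2FC 1.10 ± 0.25, DESeq2 adjusted p = 0.00475, edgeR adjusted p = 0.118). The log2FC of PTGES was 0.85 in study replicate 1 and 1.29 in study replicate 2.

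ALOX12 (ENSBTAG00000021933), the arachidonate 12-lipoxygenase, had the largest fold change among the lower genes called in all 24 fits that have a symbol. It lay between 3.71 and 15.9 CPM (median 6.25) in HF heifers and between 5.603 and 93.1 CPM (median 31.4) in CTRL heifers. CTRL values were widely spread and CTRL2 and CTRL6 lay within the HF range, and all 10 HF heifers were below the CTRL median (log2FC −2.52 ± 0.43, DESeq2 fold 5.79, adjusted p = 1.64e-05, edgeR adjusted p = 0.0650). It was −2.76 with the muscle covariate. LTA4H, a leukotriene hydrolase, was called 1.30-fold higher (DESeq2 adjusted p = 0.0364), with 7 HF heifers above every CTRL heifer. Its call held in 7 of 18 fits with a heifer left out and was lost without HF3, HF4, HF5, HF6, HF7, HF9, HF10, CTRL1, CTRL4, CTRL5 or CTRL8, with a highest adjusted p of 0.121 without CTRL4, and it was also lost with the breed or muscle covariate and with bulls summed. The other named members were not called. PLA2G4A, the phospholipase that releases arachidonic acid, had a log2FC of −0.19 ± 0.16, the prostacyclin synthase PTGIS −0.29 ± 0.38, the prostaglandin E receptor PTGER4 −0.47 ± 0.33 and the prostaglandin F receptor PTGFR −1.002 ± 1.01. For PTGIS and PTGFR the sign turned with the muscle covariate, to 0.62 and 0.99, and single heifers moved all 4, PLA2G4A to −0.05 without CTRL3, PTGIS to −0.09 without CTRL1, PTGER4 to −0.30 without CTRL4 and PTGFR to −0.34 without CTRL7.

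**Figure D3:**
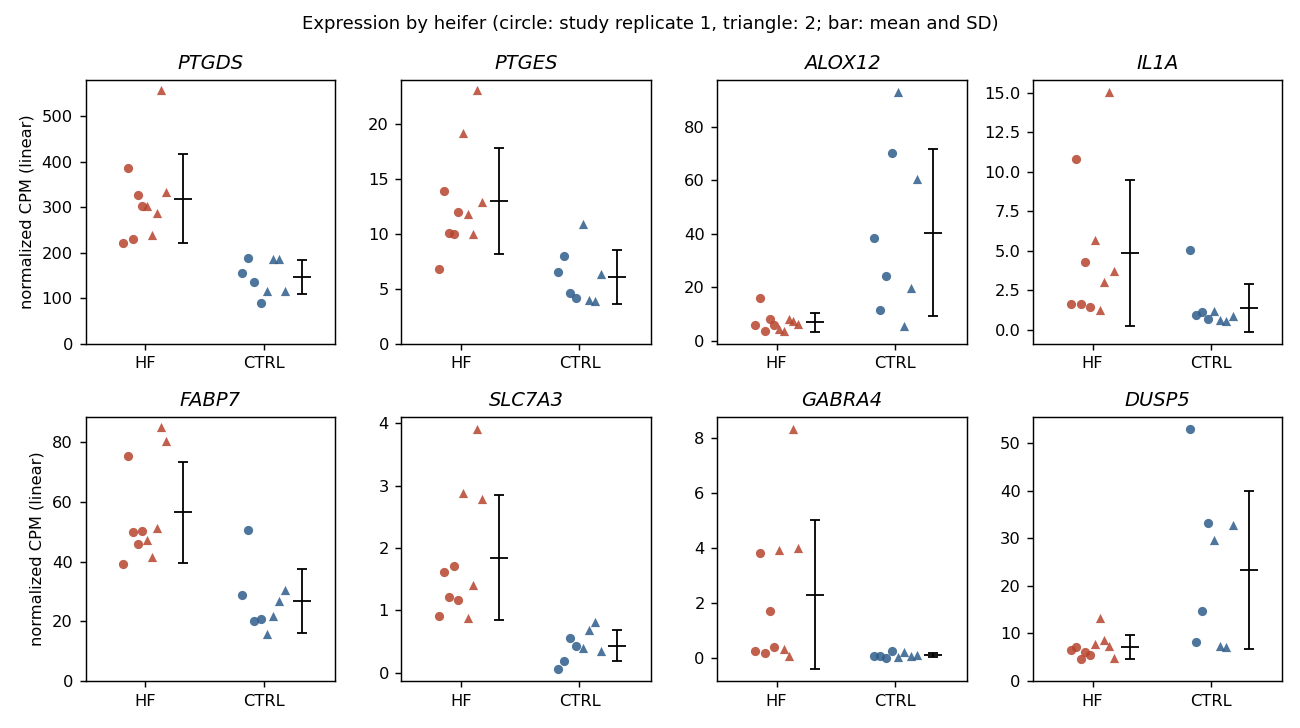
Normalized CPM (y axis, linear) of 8 genes in each HF and CTRL heifer, circles for study replicate 1 and triangles for study replicate 2, with mean and SD beside them. PTGDS and SLC7A3 do not overlap between groups, ALOX12 and DUSP5 are tightly grouped at low values in HF and spread in CTRL heifers, and 5 HF heifers hold the high GABRA4 values.

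DESeq2 called 2 of 7 named interleukin and receptor genes, 1 of 4 chemokines and 1 of 7 tested complement genes higher in HF heifers and none of these lists lower, where 4.49% of genes with a symbol were called higher and 3.43% lower. IL1A (ENSBTAG00000010349), the proinflammatory cytokine interleukin 1 alpha, was at 1.22 to 15.1 CPM (median 3.35) in HF and at 0.538 to 5.02 CPM (median 0.906) in CTRL heifers. HF9 with 15.1 and HF2 with 10.8 CPM were the highest, and CTRL1 with 5.02 CPM stood apart from the other CTRL heifers, of which the next was at 1.18 CPM. All 10 HF heifers were above the CTRL median (log2FC 1.82 ± 0.57, DESeq2 adjusted p = 0.0364, edgeR adjusted p = 0.165). The call was lost without HF2, HF6, HF9, HF10, CTRL3, CTRL4, CTRL5, CTRL6 or CTRL8 (highest adjusted p 0.130, without HF9) with the muscle covariate (0.0621) and with bulls summed (0.0810), and the edgeR log2FC ran from 1.44 without HF9 to 2.49 without CTRL1. EBI3, a subunit of interleukins 27 and 35, was called 2.09-fold higher (DESeq2 adjusted p = 0.0194), with 6 HF heifers above every CTRL heifer. That call was lost without HF9, HF10, CTRL1 or CTRL4 (highest adjusted p 0.0592, without HF9), with the muscle covariate (0.0907) and with bulls summed (0.0694).

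Of the 7 named interleukin and receptor genes of 42 listed, 4 had a log2FC above 0 and 3 below, 3 and 1 of them at an unadjusted edgeR p under 0.05, as were 19.4% and 18.8% of genes with a symbol. IL1R1, the receptor of interleukin 1, was the latter with −0.71 ± 0.28, which was −0.38 without CTRL1 at 97.6 CPM, and IL4I1, an amino acid oxidase of antigen presenting cells, had a log2FC of 0.43 ± 0.16. CCL25 (ENSBTAG00000005581), a chemokine that draws T cells to mucosa, was at 3.38 to 5.96 CPM in HF and 2.22 to 3.91 CPM in CTRL heifers, with 6 HF heifers above every CTRL heifer (log2FC 0.65 ± 0.16, DESeq2 adjusted p = 0.00795, edgeR adjusted p = 0.137). In the complement list, with 7 members tested of 34, 3 had an unadjusted p under 0.05 and all 3 were higher, against 7.76% of all genes and 19.4% of those with a symbol. The protease C1S of the classical pathway was called 1.63-fold higher, with 370 CPM as the HF and 236 CPM as the CTRL median (DESeq2 adjusted p = 0.0159), a call lost without CTRL4 (0.0634), with the muscle covariate (0.0753) and with bulls summed (0.0728). Its partner C1R had a log2FC of 0.51 ± 0.17 and the recognition subunit C1QC 0.36 ± 0.17 (0.24 with the muscle covariate).

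All 6 named interferon-stimulated genes of 34 had a log2FC above 0 (49.1% of genes with a symbol), with a median of 0.23. At an unadjusted p under 0.05 was 1 of them, IFIT3 (0.53 ± 0.23), where 19.4% of genes with a symbol were higher at such a p. Against that, all 5 named genes of Toll-like receptor and NF-kB signalling of 37 were below 0, with a median of −0.17 that was −0.04 with the muscle covariate. DESeq2 called none of these 11 genes. Outside these lists, NKIRAS1, which binds the inhibitor of NF-kB, was called 1.74-fold higher, at 13.2 to 21.1 CPM in HF and 5.82 to 13.4 CPM in CTRL heifers, with 9 HF heifers above every CTRL heifer (log2FC 0.80 ± 0.17, DESeq2 adjusted p = 0.00198). GSDMD, the pore-forming gasdermin D of inflammatory cell death, was called 1.33-fold higher, with 34.6 to 44.0 CPM against 25.4 to 39.3 CPM (adjusted p = 0.00388). Both calls were lost with bulls summed, at adjusted p of 0.0634 and 0.0810.

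The RNA of leukocyte markers was compared in the same way. The summed level of 5 named T and NK cell genes was 23.1 to 41.0 CPM in HF and 17.4 to 31.05 CPM in CTRL heifers. All 5 had a log2FC above 0, against 49.1% of genes with a symbol. CD4 had 0.81 ± 0.33, CD27 0.86 ± 0.37 and CD247, a chain of the T cell receptor complex, 0.30 ± 0.13. CD4 had 0.62 with the muscle covariate and CD27 0.65 without HF9. Of the 5, 3 had an unadjusted edgeR p under 0.05, and 1 did so with the muscle covariate and 1 with breed. Macrophage genes summed to 246 to 478 CPM in HF and 221 to 383 CPM in CTRL heifers. Of the B and plasma cell genes MZB1 had 20.1 CPM in HF9 against 2.68 CPM in the next HF heifer, and its edgeR log2FC of 1.61 ± 0.65 was 0.35 without HF9, while DESeq2, which replaced outlying counts, gave 0.32. No leukocyte marker was called. For neutrophils, 2 of 26 listed markers had an ID (PADI4 and NCF1) and summed to 5.91 to 10.9 CPM in HF and 5.48 to 8.51 CPM in CTRL heifers, while the defining CSF3R, CXCR2 and S100A8 had none. The part of leukocyte numbers in the immune genes above was not tested.

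In the lipid handling list, 4 of 33 members had a symbol and DESeq2 called all 4 higher (4.49% of genes with a symbol), with a median edgeR log2FC of 0.895. The list was written with earlier results of these data known, so this count is a description and not a test. FABP7 (ENSBTAG00000033803), a fatty acid binding protein, was at 39.4 to 85.0 CPM (median 50.1) in HF and 15.8 to 50.6 CPM (median 24.2) in CTRL heifers. CTRL2 was the CTRL heifer inside the HF range, and all 10 HF heifers were above the CTRL median (log2FC 1.07 ± 0.21, DESeq2 adjusted p = 0.00140). APOA1, the main apolipoprotein of high density lipoprotein, had a median of 46.5 CPM in HF and 26.2 CPM in CTRL heifers, with a highest value of 97.3 CPM in HF5 (log2FC 0.95 ± 0.21, adjusted p = 0.00475). SLC27A3, which links fatty acids to coenzyme A, lay at 15.1 to 23.0 CPM against 10.4 to 16.6 CPM, with 9 HF heifers above every CTRL heifer (0.57 ± 0.11, adjusted p = 0.000454). CERS4, a ceramide synthase, was called 1.78-fold higher and was lost with bulls summed (0.0522). All 4 kept an unadjusted edgeR p under 0.05 and a positive log2FC with the muscle and with the breed covariate.

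Of the amino acid transporters, SLC7A3 (ENSBTAG00000007403), a carrier of cationic amino acids such as arginine, was at 0.879 to 3.91 CPM (median 1.51) in HF and 0.0583 to 0.807 CPM (median 0.406) in CTRL heifers. The groups did not overlap, and the log2FC of 2.09 ± 0.40 was 2.08 and 2.10 in the 2 study replicates (DESeq2 fold 4.29, adjusted p = 0.000177, edgeR adjusted p = 0.108). Other carriers of the family were not called. SLC7A7 had a log2FC of 0.61 ± 0.18 and SLC7A2, which carries the same amino acids as SLC7A3, −0.97 ± 0.39 (−0.40 with the muscle covariate). The organic cation transporter SLC22A3 was called 2.83-fold lower, at 0.549 to 2.27 CPM in HF and 0.955 to 10.03 CPM in CTRL heifers (adjusted p = 0.0288). Its log2FC of −1.48 was −0.66 with the muscle covariate, and the call was lost without HF2, HF9, HF10, CTRL1, CTRL4 or CTRL5 (highest adjusted p 0.132, without CTRL1), with the breed or muscle covariate and with bulls summed. The water channel AQP5 had a log2FC of −1.61 ± 0.76 that turned to 0.10 with the muscle covariate. PDZK1IP1 was at 6.28 to 16.8 CPM in HF and 2.22 to 7.73 CPM in CTRL heifers (log2FC 1.16 ± 0.25, adjusted p = 0.00167), and GLT8D2 at 22.6 to 79.9 CPM against 12.9 to 30.5 CPM (1.09 ± 0.21, adjusted p = 0.000760).

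GABRA4 (ENSBTAG00000016645), an alpha subunit of the receptor for the inhibitory transmitter GABA, had the largest fold change among called genes with a symbol. It was counted 450 times in the 10 HF and 16 times in the 8 CTRL heifers, too few to enter the edgeR test, and DESeq2 gave a 21.3-fold difference (adjusted p = 9.68e-05, 0.00167 without HF9). In HF the values were 8.33 CPM in HF9, 4.003 in HF10, 3.94 in HF6, 3.82 in HF2 and 1.71 in HF4, while the other 5 lay between 0.0610 and 0.404 CPM. CTRL heifers lay between 0 and 0.240 CPM, so the difference sat in part of the HF heifers. ANKS1B, a synaptic scaffold gene, was called 3.40-fold higher with 5.72 CPM in HF4, and its edgeR log2FC of 1.76 was 1.28 without HF4. Its call was lost without HF4, HF5, HF6, HF9, CTRL1, CTRL4, CTRL5 or CTRL8 (highest adjusted p 0.0958, without CTRL4), with the breed or muscle covariate and with bulls summed. AMPH, amphiphysin of synaptic endocytosis, had a log2FC of 1.17 ± 0.37 and was not called (adjusted p = 0.0515). FOLH1 (ENSBTAG00000007397), a peptidase that releases glutamate from folates and a neuropeptide, was at 5.30 to 24.03 CPM in HF and 2.80 to 9.87 CPM in CTRL heifers (1.25 ± 0.29, adjusted p = 0.00469).

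Receptors of peptides and amines went the other way, with 6 of 7 named members of 40 below 0 and a median log2FC of −0.53. Among genes with a symbol 49.1% were above 0, and 3.43% were called lower. EDNRB, the endothelin receptor B, was called 2.79-fold lower (DESeq2 adjusted p = 0.0125), at 3.13 to 13.5 CPM in HF and 9.73 to 74.0 CPM in CTRL heifers. CTRL5 with 74.0 CPM stood far above the other CTRL heifers, and 7 HF heifers were below every CTRL heifer. The edgeR log2FC of −1.46 was −0.84 without CTRL5, the call was lost without CTRL1 (0.122), with the breed covariate (0.0658) and with bulls summed (0.0798), DESeq2 returned no adjusted p with study replicate as a covariate, and the values were −0.50 in study replicate 1 and −2.30 in study replicate 2. The somatostatin receptor SSTR1 was called 3.37-fold lower, at 0.196 to 1.13 CPM in HF and 0.364 to 4.99 CPM in CTRL heifers, a call lost without HF9, HF10, CTRL1, CTRL4, CTRL5 or CTRL8 (highest adjusted p 0.143, without CTRL4), with the breed or muscle covariate and with bulls summed. ADRB1, the beta-1 adrenergic receptor, had a log2FC of −0.53 ± 0.23 and was not called. UCHL1, a ubiquitin hydrolase of neurons, was at 69.6 CPM in HF7 and at 3.99 to 5.83 CPM in the other HF heifers, all but 1 of the 10 HF heifers above the highest CTRL value of 4.09 CPM. DESeq2 replaced the count of HF7 and called a 1.94-fold difference (adjusted p = 0.00198), and edgeR gave a log2FC of 2.24 that was 1.0013 without HF7. The call was lost with the muscle covariate (0.215), and DESeq2 returned no adjusted p for it with study replicate or breed as a covariate or with bulls summed.

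Early response and heat shock genes had a log2FC below 0 throughout, with few calls. All 8 named genes of 35 in the immediate early and dual specificity phosphatase list had a log2FC below 0 (median −0.56), 6 of them at an unadjusted p under 0.05, where 8.27% of all genes tested and 18.8% of those with a symbol did so in this direction. DUSP5 (ENSBTAG00000020283), a nuclear phosphatase that switches off the kinase ERK, was called, at 4.51 to 13.3 CPM (median 6.93) in HF and 7.06 to 53.1 CPM (median 22.2) in CTRL heifers. CTRL2, CTRL6 and CTRL7 overlapped the HF range, and all 10 HF heifers were below the CTRL median (log2FC −1.70 ± 0.36, DESeq2 adjusted p = 0.00167, edgeR adjusted p = 0.117). The stress transcription factor ATF3 had −0.98 ± 0.41 (−0.64 with the muscle covariate), the antiproliferative BTG2 −0.45 ± 0.14, and the Krüppel-like factors KLF6 and KLF10 −0.50 ± 0.21 and −0.44 ± 0.18, and KLF6 had −0.30 without CTRL1. With the muscle covariate the median of the list was −0.57, with 3 members at an unadjusted p under 0.05. SRF, the serum response factor that drives early response and muscle genes, was called 1.68-fold lower (adjusted p = 0.00569), and its log2FC of −0.74 was −0.44 with the muscle covariate. That call was lost with bulls summed (0.0740).

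The 7 named heat shock genes of 28 were all below 0 (median −0.54), 6 at an unadjusted p under 0.05. At such a p 18.8% of genes with a symbol and 8.27% of all genes tested were lower. Under the muscle covariate the median of the list was −0.27, with 2 members at such a p. HSPH1, a large cochaperone of HSP70, was called 1.71-fold lower, with medians of 165 CPM in HF and 297 CPM in CTRL heifers, and its log2FC of −0.76 was −0.50 with the muscle covariate. The small heat shock protein CRYAB, which is also abundant in muscle, had a log2FC of −1.02 ± 0.38, and −0.38 with the muscle covariate. DNAJA4 had −0.47 ± 0.17, DNAJB4 −0.43 ± 0.17 (−0.18 with the muscle covariate) and CHORDC1 −0.33 ± 0.11. The call of HSPH1 was lost without HF2, HF4, HF6, HF8, HF9, HF10, CTRL1, CTRL4 or CTRL5 (highest adjusted p 0.119, without CTRL4), with the breed or muscle covariate and with bulls summed. Among genes of the unfolded protein response, DNAJC3 (ENSBTAG00000012065), which inhibits a stress kinase of the endoplasmic reticulum, was at 34.7 to 59.4 CPM in HF and 50.0 to 89.3 CPM in CTRL heifers, with 8 HF heifers below every CTRL heifer (log2FC −0.59 ± 0.12, adjusted p = 0.00257). TRIB3, a pseudokinase induced by such stress, was called 2.51-fold lower and was lost without CTRL1, CTRL4 or CTRL5 (highest adjusted p 0.0922, without CTRL4), with the breed or muscle covariate and with bulls summed. DERL3, of protein export from that compartment and enriched in plasma cells, had a log2FC of 0.65 ± 0.20 and was not called.

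In the matrix, the hyaluronan list had 6 named members of 31, all below 0 with a median log2FC of −0.73, of which 3 had an unadjusted p under 0.05. Of genes with a symbol 18.8% were lower at such a p. With the muscle covariate the median was −0.34 and 1 member had such a p. CEMIP, which breaks down hyaluronan, was called 4.79-fold lower (DESeq2 adjusted p = 0.0266), at 1.56 to 13.7 CPM in HF and 3.21 to 178.5 CPM in CTRL heifers. CTRL1 supplied the highest value, and without it the edgeR log2FC moved from −2.24 to −0.9989 and the adjusted p to 0.223. With the muscle covariate it was −0.44, and the call was also lost without HF2, HF9, HF10 or CTRL4, with the breed covariate and with bulls summed. The hyaluronan receptor CD44 had a log2FC of −1.18 ± 0.40 (−0.62 without CTRL1 and −0.37 with the muscle covariate) and the proteoglycan ACAN −1.02 ± 0.34, and neither was called.

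Of 8 named collagens 6 were below 0, where 49.1% of genes with a symbol were above 0. Their median log2FC of −0.55 turned to 0.11 with the muscle covariate. COL12A1, a fibril-associated collagen, was called 2.36-fold lower, at 118 to 468 CPM in HF and 217 to 1318 CPM in CTRL heifers (adjusted p = 0.0142). Its call was lost without CTRL1 (0.0760), with the muscle covariate (0.0856) and with bulls summed (0.0826), and its log2FC of −1.23 was −0.66 with the muscle covariate. COL23A1, a transmembrane collagen, was called 2.11-fold higher (adjusted p = 0.0253) with 5 HF heifers above every CTRL heifer, a call lost without HF2, HF8, HF9, HF10, CTRL1, CTRL4, CTRL5 or CTRL8 (highest adjusted p 0.0826, without CTRL4) and with the muscle covariate. The basement membrane collagens COL4A1 and COL4A2 had a log2FC of −0.58 ± 0.19 and −0.48 ± 0.18, COL6A3 −0.52 ± 0.19 and COL9A3 1.26 ± 0.44, none of them called. TGM1, a transglutaminase that crosslinks epithelial proteins, was called 3.44-fold lower, at 1.09 to 4.04 CPM in HF and 1.91 to 16.4 CPM in CTRL heifers (log2FC −1.77 ± 0.42, adjusted p = 0.00623), a call that did not hold without CTRL4 (0.0511) or with bulls summed (0.0522). PARD6B, of epithelial polarity, was called 1.73-fold lower and was lost without 10 of the heifers (HF2, HF5, HF6, HF7, HF9, HF10, CTRL1, CTRL3, CTRL4 or CTRL5), up to an adjusted p of 0.135 without CTRL1, and with the breed or muscle covariate and bulls summed. The 10 smooth muscle genes tested were all below 0 with a median of −1.11, which was −0.81 without CTRL1 and −0.02 with the muscle covariate, itself made of these genes, and DESeq2 called none. Their myocardin coactivator MYOCD had −2.28 ± 0.78 (−1.54 without CTRL1), the actin-binding NEXN −1.52 ± 0.51 (−0.88 without CTRL1), SYNPO2 −1.33 ± 0.53 and ACTN1 −0.86 ± 0.31 (−0.52 without CTRL1).

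The 2 vesicle traffic genes that were called differed by small amounts with little spread. Of 8 named Golgi and clathrin genes of 47, 7 were below 0 and 4 of these had an unadjusted p under 0.05, against 8.27% of all genes and 18.8% of those with a symbol, and with the muscle covariate 3 did. CLINT1 (ENSBTAG00000016199), a clathrin adaptor at the trans-Golgi network, was at 90.8 to 119 CPM (median 106) in HF and 116.2 to 142 CPM (median 129) in CTRL heifers. HF4 was the HF heifer inside the CTRL range (log2FC −0.29 ± 0.07, DESeq2 adjusted p = 0.00167). GOLPH3 (ENSBTAG00000032848), a Golgi phosphoprotein, gave the same picture, with 107 to 131 CPM against 124 to 154 CPM and HF5 as the exception (−0.27 ± 0.07, adjusted p = 0.00336). The retromer subunit VPS35 with −0.26 ± 0.10 and the exchange factor ARFGEF1 with −0.21 ± 0.08 were not called, and both were nearer 0 with the muscle covariate (−0.12 and −0.13).

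TWF1, twinfilin, was called 1.40-fold lower with 28.1 to 42.6 CPM in HF and 36.2 to 55.5 CPM in CTRL heifers (adjusted p = 0.00777). RWDD4 was at 24.5 to 36.7 CPM against 36.0 to 53.8 CPM with 9 HF heifers below every CTRL heifer (−0.52 ± 0.10, adjusted p = 0.000705), and ALS2CR11 at 0.151 to 1.32 CPM against 0.364 to 3.21 CPM (−1.66 ± 0.40, adjusted p = 0.0117). ABCE1, which recycles ribosomes, was called 1.45-fold lower and lost with bulls summed (0.0567). The importins KPNA1, KPNA3 and IPO7 had a log2FC of −0.41 ± 0.13, −0.41 ± 0.17 and −0.43 ± 0.18 and were not called, and with the muscle covariate KPNA3 had −0.24 and IPO7 −0.11. Of the 6 called genes whose groups did not overlap, PTGDS and SLC7A3 are described above and ENSBTAG00000003527 has no symbol. The others lie outside the naming rule and are given because of this property: SRP72, a subunit of the signal recognition particle, at 76.7 ± 4.14 CPM in HF and 90.2 ± 8.41 CPM in CTRL heifers, the zinc finger gene ZNF74 at 22.4 ± 2.33 and 40.6 ± 24.99 CPM, and TMEM39B at 31.6 ± 2.21 and 26.6 ± 1.76 CPM.

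In the cell cycle list, where 4.49% of genes with a symbol were called higher, 3 members were called. Of 8 named cell cycle genes of 49, DESeq2 called TYMS (thymidylate synthase, 1.42-fold, adjusted p = 0.00682), HMGB2 (a chromatin protein of dividing cells, 1.45-fold, 0.0121) and CDK5 (a kinase active mainly outside the cycle, 1.40-fold, 0.0493) higher. TYMS was at 66.5 to 112 CPM in HF and 47.6 to 77.0 CPM in CTRL heifers, HMGB2 at 52.1 to 84.9 CPM against 35.7 to 58.3 CPM, and in both 7 HF heifers were above every CTRL heifer. TYMS and HMGB2 were called in all 18 fits with a heifer left out and were lost with the muscle covariate (0.0518 and 0.0625) and with bulls summed (0.0590 and 0.105), HMGB2 also with breed (0.0591), and CDK5 was called in 5 of the 18, lost without HF2, HF3, HF5, HF6, HF7, HF9, HF10, CTRL1, CTRL3, CTRL4, CTRL5, CTRL6 or CTRL8, up to 0.120 without CTRL1, and with study replicate, breed or muscle as a covariate, bulls summed or DESeq2's filtering off. The cyclin CCND2 had a log2FC of −0.67 ± 0.24 (−0.41 with the muscle covariate) and the mitotic regulator RCC2 −0.39 ± 0.11, neither called.

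All 7 named genes of ciliated epithelium of 33 had a log2FC above 0, against 49.1% of genes with a symbol. Their median was 0.57, and it was 0.27 with the muscle covariate, 0.25 in study replicate 1 and 0.78 in study replicate 2. Without HF7 the median was 0.255, and without CTRL3 it was 0.708. Their summed level was 321 to 783 CPM in HF and 201 to 633 CPM in CTRL heifers. HF7 had the highest CAPS, CFAP45 and TEKT1 of the HF heifers, at 229, 43.3 and 27.7 CPM. For CAPS the medians were 74.8 CPM in HF and 75.7 CPM in CTRL heifers. CCDC114, which anchors dynein arms in cilia, was called 1.62-fold higher (adjusted p = 0.0217) and lost without HF9, HF10, CTRL1, CTRL4 or CTRL5 (highest 0.0776, without CTRL4), with the breed or muscle covariate and with bulls summed, while TPPP3 with 0.79 ± 0.31 and TEKT1 with 0.68 ± 0.31 were not called. The stromal intermediate filament VIM was called 1.31-fold higher (adjusted p = 0.0316), with 7 HF heifers above every CTRL heifer, and lost without HF2, HF3, HF4, HF5, HF9, HF10, CTRL1, CTRL4 or CTRL8 (highest 0.0797, without CTRL1), with the muscle covariate and with bulls summed. FBLN1, a fibroblast matrix protein, had 0.32 ± 0.13 (0.20 with the muscle covariate).

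Of the TGF-beta family, GDF10 was called 3.16-fold higher (adjusted p = 0.0167) at 0.908 to 8.33 CPM against 0.374 to 1.82 CPM, a call lost without HF9, HF10, CTRL1 or CTRL4 (highest 0.0620, without CTRL4), with the muscle covariate and with bulls summed. INHA, the inhibin alpha subunit, was called 1.81-fold higher (0.0250) and lost without HF9, HF10, CTRL1, CTRL4, CTRL5 or CTRL8 (highest 0.0826, without CTRL4), with the breed covariate and with bulls summed. The bone morphogenetic protein antagonist CHRD had a log2FC of 0.44 ± 0.14 and the receptor BMPR2 −0.48 ± 0.22 (−0.30 without CTRL3). The growth factors MDK and IGF2 had 0.43 ± 0.13 and 0.79 ± 0.25, with IGF2 at 1421 CPM in HF9 against 706 CPM in the next HF heifer.

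**Figure D4:**
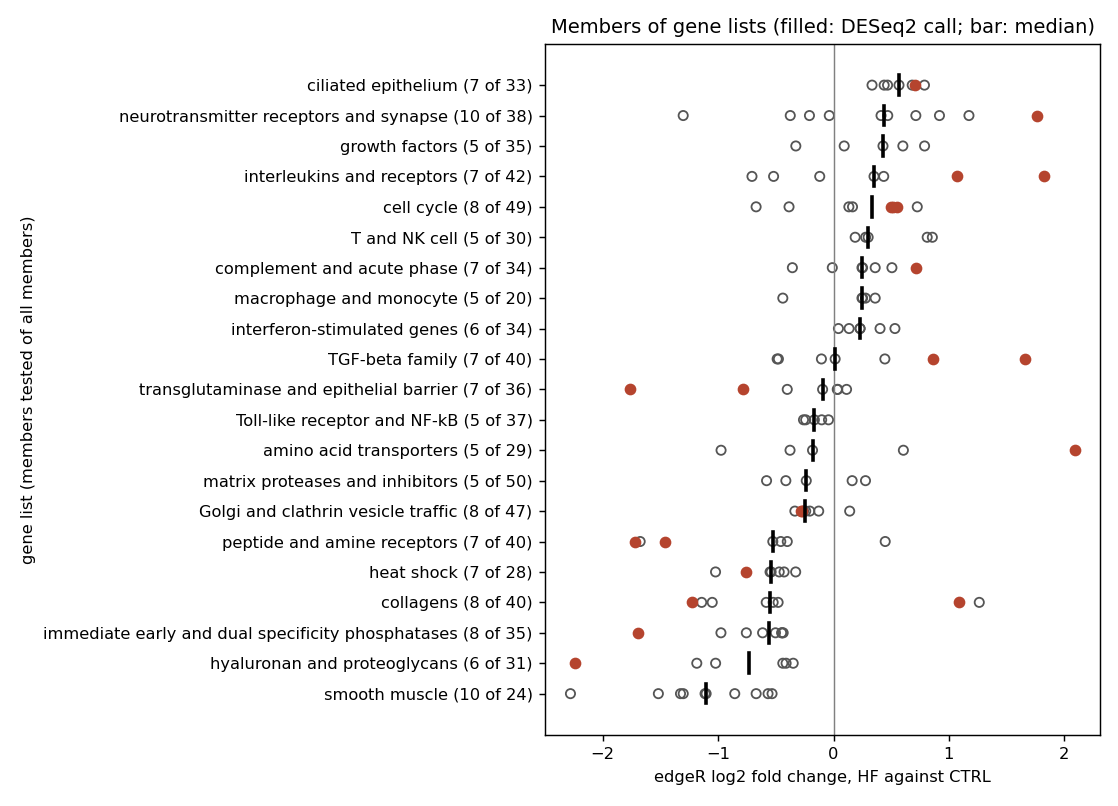
edgeR log2FC of HF against CTRL heifers (x axis) for the tested named members of the lists with 5 or more of them (y axis, with members tested of all members), filled where DESeq2 called the gene, with the list median as a bar. Every point lies left of 0 in the smooth muscle, hyaluronan, early response, heat shock and Toll-like receptor lists and right of 0 in the ciliated, T and NK cell and interferon lists, and few points are filled.

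Fold changes were also taken within each study replicate, whose heifers differ. The sign was the same in both study replicates for all 314 called genes tested in edgeR, against 70.8% of the 14885 genes tested, and genes called over all heifers lean towards this by construction. Testing the interaction of treatment and study replicate in edgeR gave 0 genes at an adjusted p under 0.05 and 248 (1.67%) at an unadjusted p under 0.05. Study replicate itself gave 0 and 508 (3.41%), against 2386 for treatment. In simulated data the interaction test missed most changes of 2-fold or less, so its 0 calls do not show an equal response in both study replicates. PTGDS had 1.05 and 1.19, APOA1 0.93 and 0.97 and PDZK1IP1 1.14 and 1.19 in study replicates 1 and 2, so these differed little between the replicates. DUSP5 had −2.19 and −1.20 and FABP7 0.79 and 1.37. The unadjusted p of the edgeR interaction was 0.189 for DUSP5 and 0.183 for FABP7, so a difference between replicates is not shown for them.

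**Figure D5:**
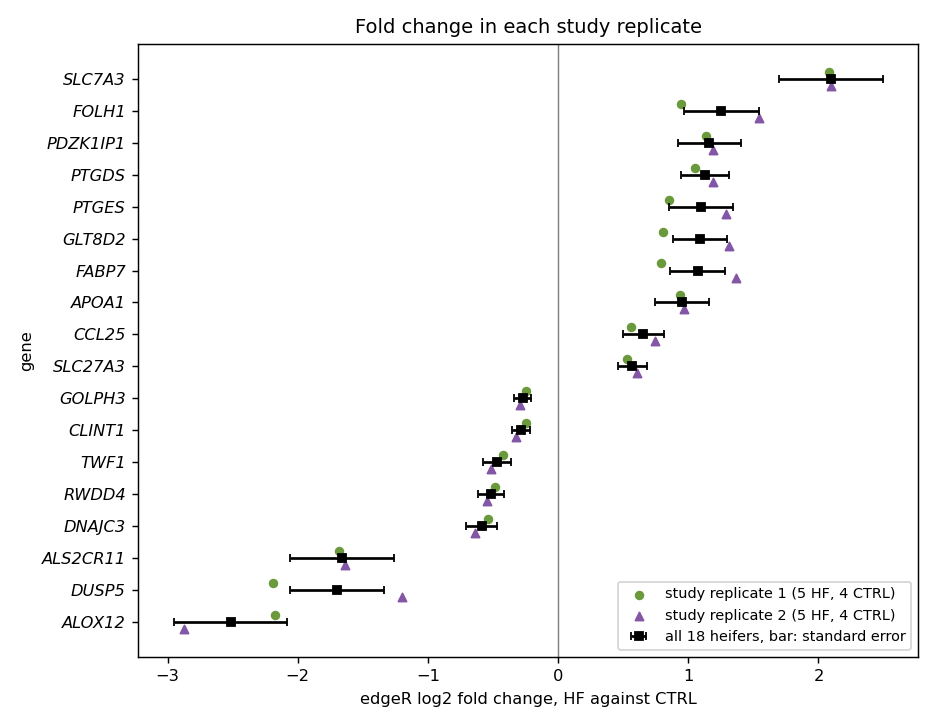
edgeR log2FC of HF against CTRL heifers (x axis) for the 18 genes with a symbol that DESeq2 called in each of the 24 other fits and edgeR tested (y axis), over all heifers with its standard error and within each study replicate. In every gene both study replicates lie on the side of 0 of the pooled value, towards which genes called over all heifers lean by construction.

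Bulls were compared within the HF heifers, with study replicate as a covariate. edgeR found 0 of 13748 genes at an adjusted p under 0.05 and 144 (1.05%) at an unadjusted p under 0.05, with 2 heifers per bull. In simulated data this test missed most changes of up to 4-fold, so its 0 calls do not show that bulls were alike. For PTGDS the heifers of bull 9 had 327 and 557 CPM, those of bull 7 386 and 239 CPM, those of bull 10 302 and 333 CPM, those of bull 6 222 and 303 CPM and those of bull 8 231 and 287 CPM. Each bull had both heifers above the highest CTRL value of 188 CPM, which follows from the groups not overlapping. For GABRA4 the heifers of a bull were far apart, with 0.252 and 3.94 CPM for bull 6, 3.82 and 0.342 CPM for bull 7 and 0.404 and 4.003 CPM for bull 10. Bull 9, with 1.71 and 8.33 CPM, had both heifers above CTRL by a wide margin, and bull 8 had neither, at 0.203 and 0.0610 CPM.

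Of the 36 genes called in all 24 fits, 17 have no symbol, 9 higher and 8 lower in HF heifers. The largest fold changes of any called gene were also seen in genes without a symbol and rest on few heifers. ENSBTAG00000046076 was called 48.1-fold higher, with 158 CPM in HF9, 26.8 CPM in HF5, 17.1 CPM in HF2 and 0 CPM in HF4, against 0 to 1.01 CPM in CTRL heifers. This call did not hold without HF2, HF5 or HF9 (up to an adjusted p of 0.120, without HF5), and with the breed covariate DESeq2 gave none. ENSBTAG00000007144 was called 18.2-fold lower, with 31 counts in all HF heifers, 11.3 CPM in CTRL5, 7.33 CPM in CTRL4 and 3.255 CPM in CTRL8, while CTRL3 and CTRL7 had none, and was lost with bulls summed (0.0990). DGKK, a diacylglycerol kinase, was called 5.22-fold lower with 7.46 CPM in CTRL1 and was lost without that heifer (0.343) and without 11 others (HF2 to HF10, CTRL4 and CTRL5), with the breed or muscle covariate, with bulls summed and with DESeq2's filtering off.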

How the data were processed

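RNA-seq of 1 endometrial biopsy per heifer was used for 10 HF and 8 CTRL heifers, and the 10 heifers given low fertility semen were not used. The deposited values are whole-number read counts per Ensembl gene for each heifer, which the authors made from trimmed poly(A)-selected stranded libraries aligned to the ARS-UCD1.2 bovine genome, with STAR 2.6.1b and Subread 1.6.3 as the tools listed in the processing notes of the submitters. Which strand setting the counting used was not given in these sources, so a gene and an overlapping antisense gene may share reads. Total counts ran from 14872812 to 24024538, and precision is limited for genes at low counts. Symbols for 1522 of 24596 IDs (6.19%) came from a part of the study's supplementary table of another comparison, of which no fold change or p-value was used.

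Groups came from the labels. The main test was the edgeR 4.0.16 quasi-likelihood test (R 4.3.3, TMM normalization, genes kept by filterByExpr at a minimum count of 10), without a replicate block. DESeq2 1.42.0, the study's tool, and limma 3.58.1 (voom with sample weights) were alternatives, with p-values adjusted by Benjamini-Hochberg over all genes tested and a threshold of 0.05. Each edgeR log2FC has a standard error of its size divided by the square root of F. The calls described are those of DESeq2, since edgeR made none. Other alternatives were other size factors and filters, a robust fit, covariates (study replicate, breed cross as Limousin, Charolais or other, mean log2 CPM of 11 smooth muscle genes with a prior count of 2), sums over the heifers of a bull, a replicate block and leaving out each heifer. The scripts were tested on a single simulated data set per comparison, with spreads estimated by edgeR. There edgeR and limma held the false calls of HF against CTRL under their threshold and DESeq2 did not. A DESeq2 call may thus be weaker evidence than its adjusted p states, though a single data set cannot establish error rates. No 2 heifers of a group agreed within sampling noise (lowest chi-square per degree of freedom 19.2 over 73 pairs). Labels name separate heifers as replicates.

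Named genes were the 10 symbols with the smallest edgeR p in each direction, the 5 largest DESeq2 fold changes in each direction among calls with a symbol, in each of 47 gene lists the DESeq2 calls and up to 4 others with the smallest edgeR p, and the gene of largest fold in each direction without a symbol. The 36 genes called in 24 fits, and genes whose groups did not overlap, were chosen after values were seen. Members and lists were chosen with earlier results of these data known. Lists for cholesterol synthesis, endothelium, mast cells, red blood cells and sperm transcripts had 0 members with a symbol.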

Additional observations from a re-analysis of the deposited data

Results flagged for a closer look

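The named genes were screened for heifers that stand apart within their group, by the gap of the highest or lowest heifer to the next divided by the range of the group, on the log2 CPM scale, against Dixon's 95% critical value. Of 252 groups in 126 genes, 19 passed, and chance alone passes about 1 in 20 groups. None of their causes was tested.

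CTRL1 had the highest value of IL1A (gap 0.668, 5.02 CPM against 1.18 in the next heifer), IL1R1 (0.604, 97.6 against 42.8 CPM) and KPNA1 (0.605, 60.2 against 41.0 CPM), and the lowest of EBI3 (0.536, 0.525 against 1.199 CPM) and of the cilia gene TEKT1 (0.542, 2.04 against 5.603 CPM). CTRL5 had the highest EDNRB (0.646, at 74.0 CPM) and the lowest ANKS1B (0.758, 0 against 0.428 CPM) and ENSBTAG00000048312 (0.655, 0.0559 against 0.350 CPM).

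HF7 had by far the highest UCHL1 (0.868, 69.6 against 5.83 CPM) and the lowest values of 4 matrix genes, COL4A1 (0.555, 404 against 726 CPM), COL4A2 (0.531, 325 against 621 CPM), COL6A3 (0.599, 606 against 1003 CPM) and the protease ADAMTS1 (0.608, 112 against 186.1 CPM). HF9 had the highest IGF2 (0.480, 1421 against 706 CPM), MZB1 (0.601, 20.1 against 2.68 CPM) and TRIB3 (0.486, 1.41 against 0.831 CPM) and the lowest PARD6B (0.574, 1.73 against 3.96 CPM). HF2 had the highest ATF3 (0.505, 39.7 against 14.5 CPM) and HF5 the highest GOLPH3 (0.467, 131 against 119.2 CPM).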

How the results depend on the processing

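With edgeR, 0 genes passed an adjusted p under 0.05 with other size factors, no filter, a filter of 1 CPM, the robust fit, limma, each covariate, bulls summed and the replicate block, while DESeq2 gave 328. Leaving out a heifer gave 0 to 91 genes in edgeR, 91 without CTRL2 and 3 without CTRL6. The DESeq2 count was 98 with breed, 112 with the muscle mean, 76 with bulls summed and 126 with the replicate block, and 91 (without CTRL4) to 869 (without CTRL2) with a heifer left out. It also moved by over 1.5 times without HF2 (200), HF9 (110), HF10 (134), CTRL1 (97), CTRL5 (129), CTRL6 (554), CTRL7 (637) and CTRL8 (204). Genes at an unadjusted edgeR p under 0.05 numbered 1383 with the replicate block and 1726 to 2794 with a heifer left out. HF1 to HF8 and CTRL1 to CTRL8 share replicate numbers, but the correlation of the deviations was over 0.1 in 5 of 8 pairs (−0.39 to 0.36), so the numbers were not taken as pairs. Over all 178 genes of the naming rule with an edgeR value, the sign turned in 12 with the muscle mean, 2 with breed and 0 with bulls summed, and 9 had both signs among the fits without a heifer. For the 121 of these that were called, had an unadjusted p under 0.05 or are prostaglandin genes with their value given, 5 of 3504 alternative values reversed: AQP5 to 0.10 and PTGFR to 0.99 with the muscle mean, and PTGIS to 0.0253 with limma, 0.62 with the muscle mean and 0.0106 with the replicate block. The cause of these moves was not tested. Counts for the interaction, study replicate and bull stayed at 0 under other size factors, the 1 CPM filter and the robust fit. With 2 heifers per bull and few named genes, absent calls do not show equal expression.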
